A study of Triticum aestivum with 42 samples.

Results

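Vernalisation, the promotion of flowering by a long cold period, is described here through 6 wheat genes named after their Arabidopsis homologues. They are VIL1 (probe-set Ta.10289.2.S1_at), VIL2 (Ta.7238.1.S1_at), VIL3 (Ta.16935.1.S1_at), EMF2, also labelled AtVRN2-like (Ta.367.1.S1_at), AtVRN1-like (Ta.9525.1.S1_x_at) and VIP4 (Ta.6967.2.S1_at). Each was read from the probe-set listed for it among the study's phase-transition genes, and together they are 6 of the 61290 probe-sets of the Affymetrix Wheat Genome Array. Transcript abundance was measured in leaf and crown of the winter wheat Harnesk at 3, 5 and 9 weeks after germination, with 2 arrays per tissue and week (12 in all). Until 3 weeks the plants had 16°C by day and 14°C by night, a photoperiod of 14 h and a PAR of 280. The conditions then declined in steps, and stood at 14°C and 10°C with 12 h and a PAR of 185 at 5 weeks, and at 8°C and 4°C with 9 h and a PAR of 95 at 9 weeks. The control plants lost light and day-length in the same way but stayed at 16°C and 14°C, and are represented by 1 array per tissue and week (6 in all). They were of another winter variety, Solstice, so that temperature and variety cannot be told apart when Harnesk is set against them. The crown samples held the shoot apex with some stem below it and immature leaf bases. The Paragon arrays and those of Solstice under declining temperature (24 of the 42) carry values that do not follow the probe-set identifiers and were not used.

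In Arabidopsis, VERNALIZATION INSENSITIVE 3 (VIN3) is made in the cold, and this PHD-finger protein joins a Polycomb repressive complex that marks the histones of the floral repressor FLC. The VIN3-like (VIL) proteins share this role. EMF2 and VRN2 are related zinc-finger subunits of the Polycomb complex itself, while VRN1 of Arabidopsis is a B3-type DNA-binding protein that helps to keep FLC silent. That gene is not the homologue of wheat TaVRN1, a MADS-box gene that promotes flowering. VIP4 belongs to the Paf1 complex, which accompanies transcribing RNA polymerase and in Arabidopsis is needed for high FLC expression.

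Each value is a ratio to a per-gene median on a linear scale, so a value can be compared between samples of a gene but not between genes. Which arrays the median spans is not stated and may differ between Harnesk and the controls, so that levels are compared only within each of them, and between them only the changes. Each array held RNA pooled from several plants, so that a p-value speaks of the spread among pools. A transcript was taken as changed at an adjusted p below 0.05, from limma with Benjamini-Hochberg adjustment over 61179 probe-sets, at any fold. Replicates were closer in crown than in leaf, with a median SD between replicates of 0.10 against 0.18 on the log2 scale. The interquartile range of log2 values narrowed with time in Harnesk, leaf going from 0.761 and 0.855 at 3 weeks to 0.536 and 0.581 at 9 weeks, crown from 0.445 and 0.505 to 0.351 and 0.338. Rank correlations between replicates lay between 0.81 and 0.85. The control leaf array of 9 weeks correlated with the control leaf arrays of 3 and 5 weeks at 0.09 and 0.11, while those correlated with each other at 0.78. Among the control crown arrays the interquartile range was 0.781 at 3 weeks, and 0.486 and 0.479 at the later harvests.

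The labelled tissues were separated by the sums and medians of their markers, though not by every probe-set. The summed level of 16 probe-sets of 4 histone genes typical of dividing cells (H2A-9, H2A-3, H2A-2 and wcH2B-8) ran from 283 to 355 in Harnesk crown and from 2.32 to 3.57 in Harnesk leaf. That of 8 probe-sets of 5 photosynthetic or photorespiratory genes (PRK, FBP, CAT1, petC and OEE1) lay between 17.5 and 27.5 in leaf, against 2.59 to 3.37 in crown. A wcH2B-8 probe-set held most of the crown histone sum. The histone median was 5.98 to 7.96 in crown and 0.054 to 0.1 in leaf, the leaf marker median 0.11 to 0.226 and 2.34 to 2.92. A H2A-3 probe-set did not separate the tissues, with means of 0.763, 1.53 and 1.04 in leaf and 0.91, 0.981 and 0.61 in crown. At 9 weeks an FBP probe-set was at 1.02 in leaf and 1.06 in crown, and a petC probe-set at 1.08 and 0.937. The control arrays, whose scale may be another, separated the tissues in the same direction, with histone sums of 13.6 to 14.0 in leaf against 1480 to 2070 in crown, and leaf marker sums of 7.95 to 10.6 against 2.74 to 4.38. The same FBP probe-set was higher in control crown than in control leaf at 3 weeks, at 2.44 against 1.57. The H2A-3 probe-set was higher in control leaf at each week, at 0.82, 0.646 and 1.64 against 0.362, 0.494 and 0.877 in crown.

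**Figure D1:**
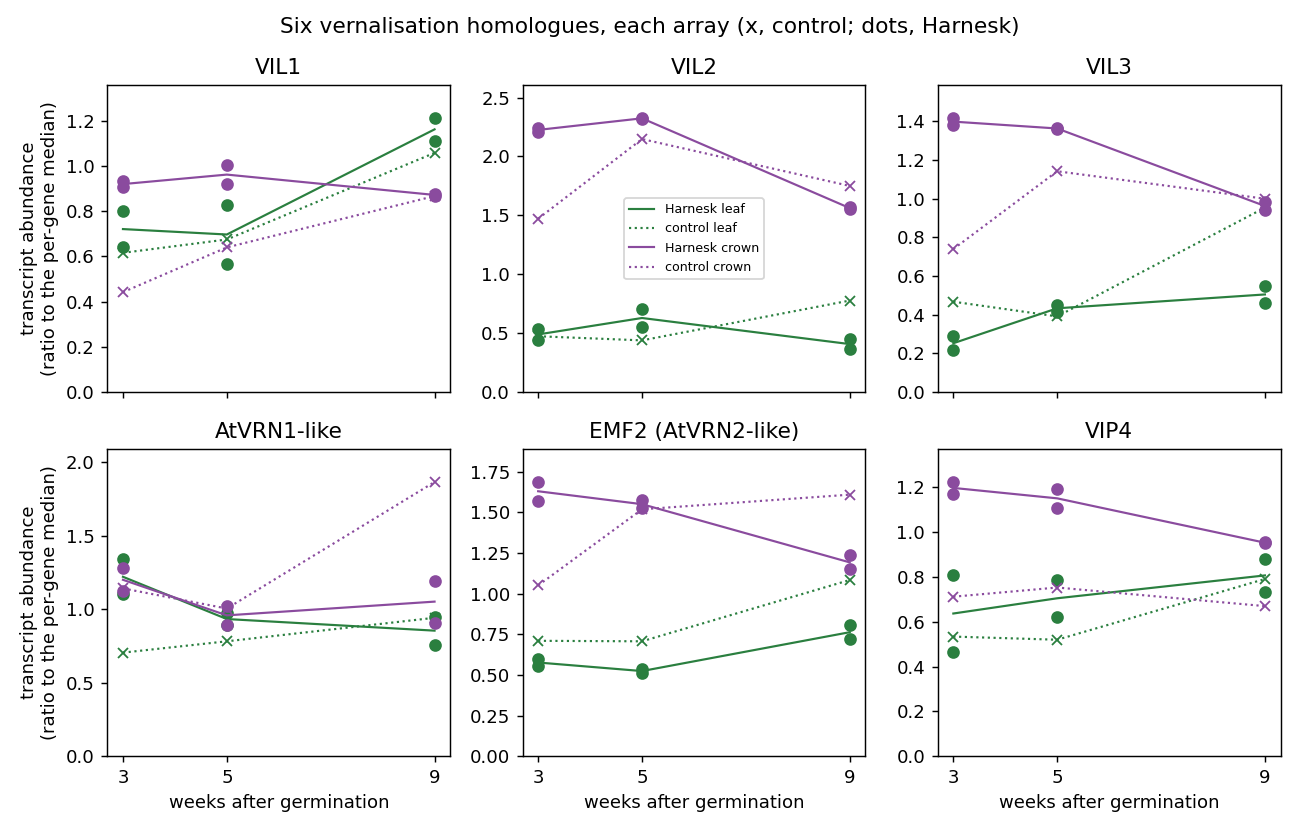
Transcript abundance (ratio to the per-gene median, linear axis from 0) of the 6 genes against weeks after germination, in leaf (green) and crown (purple). Dots are single Harnesk arrays with a solid line through their means, and crosses with dotted lines are the single control arrays, whose per-gene median may differ from that of Harnesk. In Harnesk, VIL2, VIL3, EMF2 and VIP4 lay higher in every crown array than in every leaf array, while VIL1 reached its highest values in leaf at 9 weeks.

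The first comparison was between the tissues of Harnesk. VIL2, VIL3, EMF2 and VIP4 were more abundant in crown, and VIL1 and AtVRN1-like did not pass the test. Over all probe-sets, 74.2% differed between crown and leaf and 30.0% were higher in crown, against which stand 4 of the 6 genes, all 4 higher in crown. The median difference of all probe-sets was -0.16 on the log2 scale and that of the 6 genes 0.94.

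VIL2 had the widest gap. Its 6 crown values ran from 1.555 to 2.328, with a median of 2.23, and its 6 leaf values from 0.366 to 0.702, with a median of 0.492. The difference was 2.01 ± 0.09 on the log2 scale (SE, adjusted p = 2.43e-10), a 4.03-fold higher abundance in crown. VIL3 was 3.23-fold higher in crown (1.69 ± 0.09, adjusted p = 1.34e-09), and EMF2 2.36-fold (1.24 ± 0.07, adjusted p = 3.8e-09). VIP4 was 1.56-fold higher (0.64 ± 0.12, adjusted p = 0.000468). For VIL1 the difference was 0.15 (95% interval -0.07 to 0.36, adjusted p = 0.202) and for AtVRN1-like 0.10 (-0.11 to 0.32, adjusted p = 0.358). With each array centred on its median, VIL1 passed at 0.23 (adjusted p = 0.0394), and after quantile normalisation it was at 0.05 (limma, adjusted p = 0.578). In bulk tissue, fewer cells that use a gene and less RNA per cell cannot be told apart.

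The gap between the tissues narrowed with time for some of the genes. VIL3 was 5.60-fold higher in crown at 3 weeks, 3.15-fold at 5 weeks and 1.91-fold at 9 weeks. EMF2 was 2.83-fold, 2.96-fold and 1.56-fold higher at the same harvests. VIL2 held a similar ratio throughout, at 4.57-fold, 3.72-fold and 3.85-fold. VIL1 was higher in crown at 3 weeks by 1.28-fold and higher in leaf at 9 weeks by 1.33-fold. Between the single control arrays of 3, 5 and 9 weeks, the log2 difference of crown minus leaf was 1.63, 2.29 and 1.17 for VIL2. It was 0.66, 1.55 and 0.07 for VIL3, 0.57, 1.1 and 0.57 for EMF2, and 0.42, 0.53 and -0.24 for VIP4. For VIL1 it was -0.48, -0.08 and -0.29, and for AtVRN1-like 0.7, 0.36 and 0.99. The tissue pattern of Harnesk was thus not shared by the controls for every gene.

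**Figure D2:**
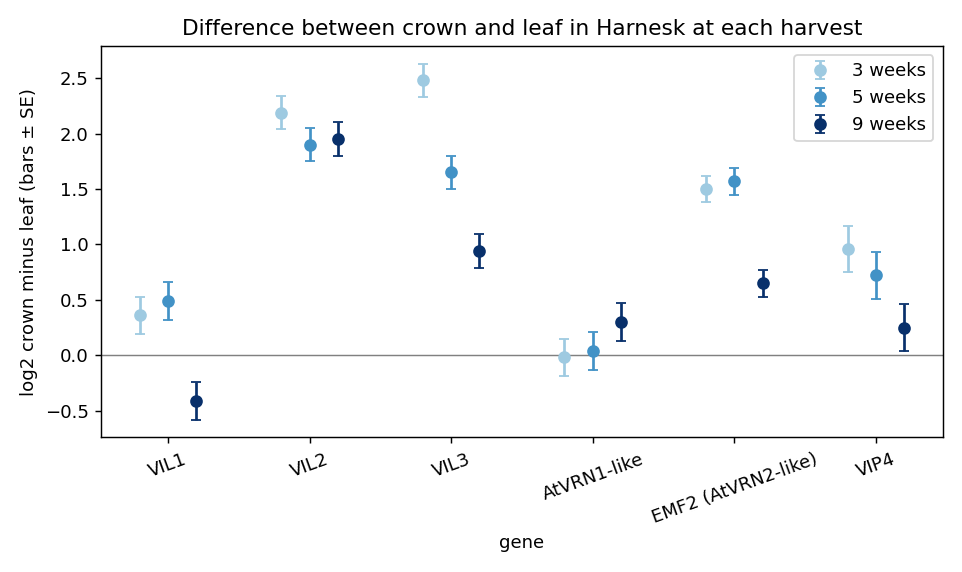
Log2 difference between crown and leaf of Harnesk for each gene at 3, 5 and 9 weeks (points, 2 arrays per tissue and week; bars, SE). The difference of VIL3 fell from 2.48 to 0.94 and that of EMF2 from 1.5 to 0.65, whereas VIL2 stayed between 1.90 and 2.19 and VIL1 passed from 0.36 to -0.41.

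In Harnesk leaf, 3 of the 6 genes rose between 3 and 9 weeks (VIL1, VIL3 and EMF2) and AtVRN1-like fell. Over all probe-sets 33.9% changed between these harvests, 17.0% rising and 16.9% falling. The share among the 6 genes is above that background, but with so few genes it describes them and no more. The summed leaf markers fell in the same arrays, from 27.5 and 26.4 at 3 weeks and 25.3 and 24.6 at 5 weeks to 17.5 and 18.2 at 9 weeks, and their part in the leaf changes was not tested.

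VIL3 rose in leaf. It stood at 0.290 and 0.215 at 3 weeks, at 0.416 and 0.450 at 5 weeks, and at 0.547 and 0.462 at 9 weeks, so that the weeks did not overlap. The rise from 3 to 9 weeks was 2.01-fold (1.01 ± 0.15 on the log2 scale, adjusted p = 0.000293). Most of it came early. From 3 to 5 weeks VIL3 rose by 0.79 (adjusted p = 0.0048), and it was the only 1 of the 6 to change in that interval, in which 10.9% of all probe-sets did. From 5 to 9 weeks the difference was 0.22 (adjusted p = 0.339).

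VIL1 followed another course, with its rise after 5 weeks. Its leaf values were 0.642 and 0.800 at 3 weeks, 0.568 and 0.826 at 5 weeks, and 1.111 and 1.213 at 9 weeks. The arrays of the earlier harvests overlapped and both 9-week arrays lay above them. The change was 0.76 ± 0.17 from 5 to 9 weeks (adjusted p = 0.00639) and 0.70 ± 0.17 from 3 to 9 weeks (adjusted p = 0.00832), a 1.62-fold rise.

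EMF2 rose in the same late interval. It stood at 0.554 and 0.599, then 0.538 and 0.510, and at 0.807 and 0.719 by 9 weeks, so that the last harvest lay above both earlier ones. The change from 5 to 9 weeks was 0.54 ± 0.12 (adjusted p = 0.00654), and that from 3 to 9 weeks 0.40 ± 0.12 (adjusted p = 0.0242). From 5 to 9 weeks 24.8% of all probe-sets changed, and 3 of the 6 genes did, the third being VIL2.

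VIL2, unlike the chosen probe-sets of VIL1 and VIL3, did not end higher in leaf. Its values were 0.535 and 0.444 at 3 weeks, 0.556 and 0.702 at 5 weeks, and 0.366 and 0.449 at 9 weeks, with both 5-week arrays on top. It fell by 0.62 on the log2 scale from 5 to 9 weeks (adjusted p = 0.0101), and the difference from 3 to 9 weeks was -0.27 ± 0.15 (adjusted p = 0.203).

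AtVRN1-like fell in leaf by 0.52 from 3 to 9 weeks (SE 0.17, adjusted p = 0.0365). Its values were 1.341 and 1.101, then 0.894 and 0.973, and then 0.760 and 0.949, so that both 3-week arrays lay above the rest and the later harvests overlapped. VIP4 gave 0.808 and 0.466 at 3 weeks and 0.735 and 0.879 at 9 weeks. The arrays overlapped, and its difference was 0.39 ± 0.21 (adjusted p = 0.184).

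The leaf calls differ in how much they depend on single arrays and on the fit. VIL3 remained changed from 3 to 9 weeks without any of the 4 arrays compared (0.79 to 1.23) and in a fit of leaf arrays alone (adjusted p = 0.00782). In that fit of leaf alone VIL3 was the only 1 of the 6 to pass, with an adjusted p of 0.0536 for VIL1, 0.118 for EMF2 and 0.0873 for AtVRN1-like, and none of the 6 passed for 5 minus 3 or 9 minus 5 weeks. Leaving out replicate 1 of 3 weeks or replicate 1 of 9 weeks ended the calls of EMF2 (adjusted p = 0.0722 and 0.147) and AtVRN1-like (0.154 and 0.237), and leaving out replicate 2 of 9 weeks that of VIL1 (0.0527). From 5 to 9 weeks, VIL1 lost its call without replicate 1 of 5 weeks (0.0523), EMF2 without replicate 1 of 9 weeks (0.0598), and VIL2 without replicate 2 of 5 weeks (0.084) or replicate 1 of 9 weeks (0.0993).

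In Harnesk crown all 6 differences from 3 to 9 weeks were below 0, between -0.54 and -0.08, and VIL3 and EMF2 passed the test. Over all probe-sets 11.0% changed, 3.57% rising and 7.43% falling, with a median of 0.01, against a median of -0.39 for the 6 genes.

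From 3 to 5 weeks none of the 6 passed (limma, adjusted p = 1 for each, and none had an unadjusted p below 0.05), and 0.520% of all probe-sets changed. VIL3 stood at 1.378 and 1.417 at 3 weeks, at 1.357 and 1.367 at 5 weeks, and at 0.983 and 0.940 at 9 weeks, with the last harvest clear of the others. It fell by 0.54 from 3 to 9 weeks (SE 0.15, adjusted p = 0.0402). EMF2 went from 1.573 and 1.687 through 1.527 and 1.574 to 1.150 and 1.235, and fell by 0.45 (SE 0.12, adjusted p = 0.0348).

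VIL2 was at 2.209 and 2.242, then 2.328 and 2.320, and then 1.569 and 1.555. Both 9-week arrays lay below all 4 earlier ones. It was the only 1 of the 6 to change from 5 to 9 weeks, in which 7.25% of all probe-sets did, and fell by 0.57 (adjusted p = 0.042). That call was lost without any 1 of the 4 arrays compared (adjusted p up to 0.216, differences of -0.58 to -0.57) and after quantile normalisation, at -0.39 (adjusted p = 0.101), and kept in a fit of crown alone (adjusted p = 0.00209). Its difference from 3 to 9 weeks was -0.51 (adjusted p = 0.0522). VIP4 was likewise lowest at 9 weeks, at 1.171 and 1.224, 1.109 and 1.193, and 0.955 and 0.951, with a difference of -0.33 ± 0.21 (adjusted p = 0.405). VIL1 lay between 0.867 and 1.005 in all 6 crown arrays, with the 9-week arrays (0.877 and 0.867) the lowest. AtVRN1-like lay between 0.892 and 1.279, with both 3-week arrays (1.279 and 1.122) above both 5-week arrays (0.892 and 1.025). Its 9-week arrays (1.195 and 0.909) overlapped both earlier harvests.

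These crown calls lie near the threshold. Leaving out any 1 of the 4 crown arrays compared left none of the 6 called from 3 to 9 weeks, with adjusted p up to 0.22 for VIL3 and 0.246 for EMF2, while the differences stayed at -0.57 to -0.51 and -0.50 to -0.40. The fit of crown arrays alone, where replicates were closer, called 4 of the 6, namely VIL3 (adjusted p = 0.00234), VIL2 (0.00295), EMF2 (0.00786) and VIP4 (0.0319). The histone sum in crown moved in the same direction, from 355 and 335 at 3 weeks through 299 and 318 at 5 weeks to 283 and 287 at 9 weeks, with 1 probe-set of wcH2B-8 holding most of it (means of 222, 187 and 190). The median over the 16 histone probe-sets was 7.96 in both arrays of 3 weeks, 7.85 and 7.76 at 5 weeks, and 6.12 and 5.98 at 9 weeks. The part of these markers in the crown differences was not tested.

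**Figure D3:**
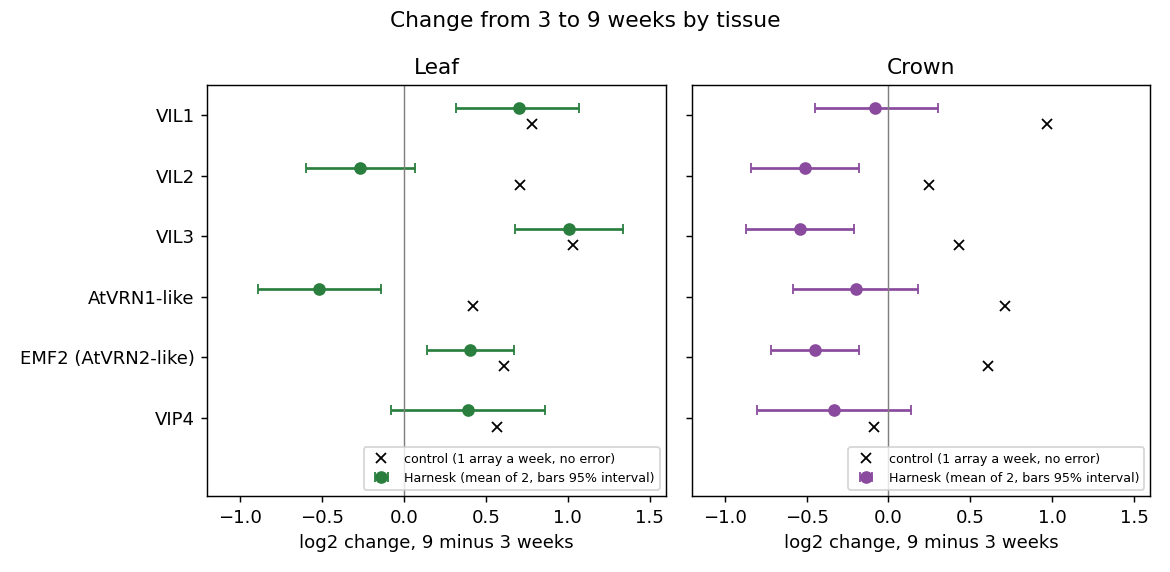
Log2 change from 3 to 9 weeks in leaf (left) and crown (right) for the 6 genes. Coloured points are Harnesk (2 arrays per week; bars, 95% interval from limma) and crosses are the difference between single control arrays. In leaf VIL3 changed by 1.01 in Harnesk and 1.03 in the controls, while in crown every Harnesk point lies below 0 and 5 of the 6 crosses lie above it.

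The change in leaf differed from the change in crown for 3 of the 6 genes, against 30.2% of all probe-sets. The difference was 1.55 ± 0.22 for VIL3 (95% interval 1.08 to 2.02, adjusted p = 0.000273), 0.85 ± 0.17 for EMF2 (0.48 to 1.23, adjusted p = 0.0032) and 0.77 ± 0.24 for VIL1 (0.24 to 1.30, adjusted p = 0.0316). VIL3 and EMF2 kept the call without any single array, whereas VIL1 kept it in 1 of the 8 such fits (adjusted p up to 0.0945). A second VIL3 probe-set, described below, was not called in this comparison. For VIP4 the difference was 0.72 (0.06 to 1.38, adjusted p = 0.0936), for VIL2 0.24 (-0.23 to 0.72, adjusted p = 0.421), and for AtVRN1-like -0.32 (-0.85 to 0.22, adjusted p = 0.354).

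Because the spread of values narrowed on the later arrays, the same differences were taken after quantile normalisation. It was done separately for the Harnesk and the control arrays, and gives the arrays within each the same spread. VIL3 then rose in leaf by 0.48 (adjusted p = 0.0236), fell in crown by 0.54 (adjusted p = 0.016) and differed between the tissues by 1.01 (adjusted p = 0.00291). VIL1 rose in leaf by 0.58 (adjusted p = 0.0108). EMF2 was at 0.16 in leaf (adjusted p = 0.405), -0.25 in crown (0.178) and 0.41 between the tissues (0.111), and from 5 to 9 weeks in leaf at 0.27 (0.153), so that these calls of EMF2 were lost. AtVRN1-like was at -0.38 in leaf (adjusted p = 0.221). VIL2 passed in leaf, falling by 0.54 (adjusted p = 0.0224), and was at -0.24 in crown (0.306).

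The array carries 8 further probe-sets of these genes, 7 from their transcript clusters and 1 (TaAffx.92348.1.S1_at) that the study lists beside VIL2. From 3 to 9 weeks 1 of the 8 rose and 1 fell in leaf, where 33.9% of all probe-sets changed, and 3 fell in crown, where 7.43% did. Those of VIL1 and VIL2 moved with the probe-sets above. Ta.10289.1.A1_at (VIL1) went in leaf from 0.709 and 0.686 through 0.761 and 0.658 to 1.636 and 1.307, a rise of 1.07 ± 0.14 (adjusted p = 8.46e-05), with -0.12 in crown (adjusted p = 0.67) and a difference between the tissues of 1.19 (adjusted p = 0.000785). For VIL2, Ta.7238.2.S1_at and TaAffx.92348.1.S1_at were higher in crown by 2.15 and 2.46 (adjusted p = 3.16e-11 and 1.54e-11). They fell in crown by 0.62 (adjusted p = 0.0107) and 0.69 (adjusted p = 0.00867), and after quantile normalisation the first was at -0.33 (0.148) and the second at -0.44 (0.0444). Each kept its crown call in 1 of the 4 fits that leave out an array (adjusted p up to 0.129 and 0.0928).

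The probe-sets of VIL3 disagreed in leaf. Ta.16935.2.S1_at stood at 0.818 and 0.949 at 3 weeks and 0.778 and 0.719 at 9 weeks, a difference of -0.24 ± 0.12 (adjusted p = 0.157), where Ta.16935.1.S1_at had risen 2.01-fold. In crown they shared the fall, with Ta.16935.2.S1_at going from 1.382 and 1.370 to 0.844 and 0.835 (-0.71 ± 0.12, adjusted p = 0.00273, and called without any of the 4 arrays compared). The difference between the leaf change and the crown change, called for Ta.16935.1.S1_at, did not pass for Ta.16935.2.S1_at. The probe-sets differ too in the gap between tissues, 0.50 on the log2 scale for Ta.16935.2.S1_at against 1.69. Which of them follows which copy of the gene is not given in the sources used here.

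AtVRN1-like was read by 3 more probe-sets, of which Ta.9525.2.S1_x_at also fell in leaf, by 0.56 (adjusted p = 0.00806). It was at 0.24 in crown (adjusted p = 0.336), and its change differed between the tissues by -0.79 (adjusted p = 0.00912). After quantile normalisation its leaf difference was -0.37 (adjusted p = 0.105). Ta.9525.3.S1_x_at and Ta.9525.1.S1_at were at -0.34 and -0.13 in leaf (adjusted p = 0.133 and 0.637). The ending x_at, which the probe-set chosen for AtVRN1-like also carries, marks probes that may match other transcripts. The second probe-set of VIP4, Ta.6967.1.S1_at, gave 0.65 between crown and leaf (adjusted p = 0.000163), close to the 0.64 of the first, with 0.20 in leaf and -0.36 in crown from 3 to 9 weeks (adjusted p = 0.438 and 0.278).

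**Figure D4:**
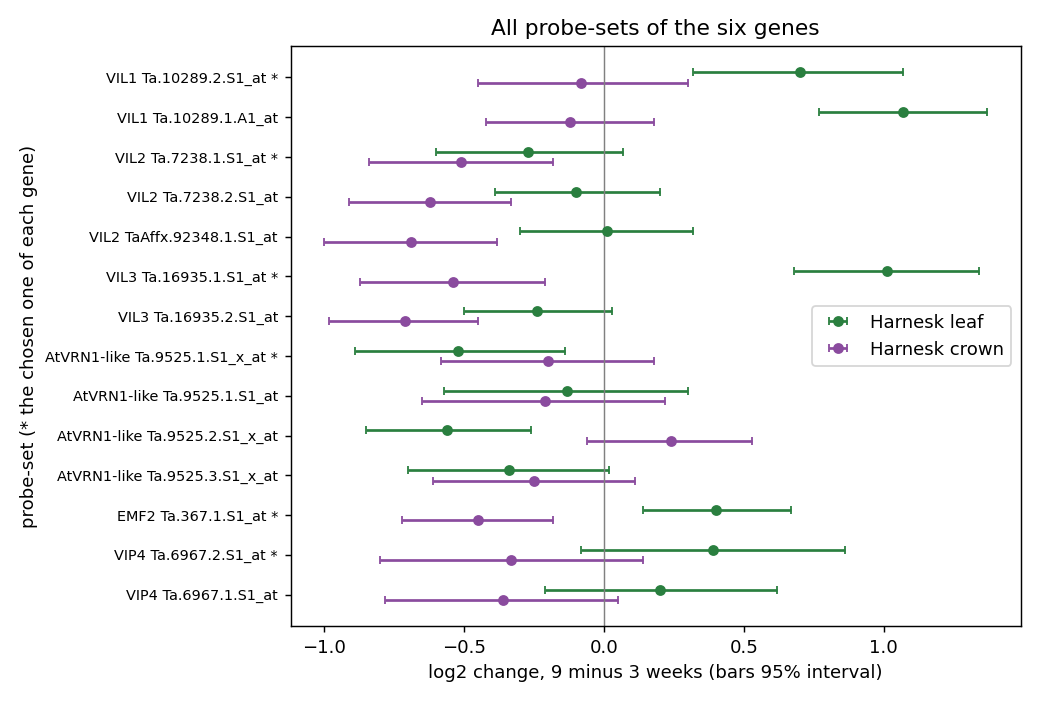
Log2 change from 3 to 9 weeks in Harnesk leaf (green) and crown (purple) for all 14 probe-sets of the 6 genes, with 95% intervals from limma; an asterisk marks the probe-set chosen for each gene. Both VIL1 probe-sets rose in leaf and all 3 of VIL2 lie below 0 in crown, while those of VIL3 part in leaf at 1.01 and -0.24.

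In the controls light fell with the weeks but temperature did not. The plants also grew older between harvests, as did those of Harnesk, so that age and growth conditions cannot be told apart within either. In control leaf the chosen probe-set of each of the 6 genes was higher at 9 than at 3 weeks. The differences between these single arrays were 0.42 to 1.03 on the log2 scale. VIL1 went from 0.616 through 0.675 to 1.058 and VIL3 from 0.467 through 0.391 to 0.953. EMF2 went from 0.710 through 0.707 to 1.084. The 9-week array was the highest of the 3 for the chosen probe-sets of all 6 genes. It is the array that stands apart from the other control leaf arrays. Its histone sum was 14.0, against 14.0 at 3 weeks and 13.6 at 5 weeks, and its leaf marker sum of 7.95 was the lowest, against 10.6 and 9.41. Their part in these differences was not tested. On the further probe-sets, the control leaf difference from 3 to 9 weeks was 1.21 for VIL1, 0.24 and 1.04 for VIL2, and 0.03 for VIL3. It was 0.99 for VIP4, and 0.32, -0.18 and -0.08 for AtVRN1-like, so that not every probe-set of these genes rose there.

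The change in Harnesk leaf was therefore set against that in control leaf, with each control array assumed to vary like the Harnesk replicates. The interval of the difference held 0 for VIL1 (-0.74 to 0.57), VIL3 (-0.59 to 0.55), EMF2 (-0.67 to 0.26) and VIP4 (-0.99 to 0.63), so that a difference in either direction within these bounds is not excluded. VIL2 passed at -0.98 ± 0.27 (adjusted p = 0.0286) and kept the call in 3 of the 4 fits that leave out a Harnesk array (adjusted p up to 0.0751), and AtVRN1-like was at -0.93 ± 0.30 (adjusted p = 0.06), against 13.5% of all probe-sets. Of the 8 further probe-sets 1 was called, lower in Harnesk leaf, against the same 13.5%. For VIL2, the mean of Ta.7238.2.S1_at went from 0.512 to 0.48 in Harnesk leaf, and the control from 0.291 to 0.344. That of TaAffx.92348.1.S1_at went from 0.3 to 0.302, and the control from 0.161 to 0.332. After quantile normalisation VIL3 passed too, at -0.73 (adjusted p = 0.0373). Without the control leaf array of 9 weeks only 5 minus 3 weeks remains, an alternative chosen after seeing the data, which shortens the Harnesk interval as well. There VIL2 turned to 0.47 (adjusted p = 0.405), and VIL3 rose more in Harnesk than in the control by 1.05 ± 0.26 (adjusted p = 0.0357). The single control arrays of VIL3 went from 0.467 to 0.391 between those harvests.

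On the chosen probe-sets, 5 of the 6 genes were higher in control crown at 9 than at 3 weeks. The 6 differences in Harnesk crown were below 0. VIL1 went from 0.442 through 0.640 to 0.867, and EMF2 from 1.051 through 1.519 to 1.609. VIL3 stood at 0.739, 1.141 and 0.999, and VIL2 at 1.472, 2.148 and 1.750. The 3-week array was the lowest of the 3 for the chosen probe-sets of these 4 genes. It is the control crown array with the wide spread of values. Its rank correlations with the control crown arrays of 5 and 9 weeks were 0.68 and 0.37, while those correlated with each other at 0.62. With the Harnesk crown arrays of 3 weeks, grown under the same conditions, it correlated at 0.29 and 0.24. The control crown array of 5 weeks correlated with the same Harnesk arrays at 0.6 and 0.56, and that of 9 weeks at 0.56 with each. On the further probe-sets, the control crown difference from 3 to 9 weeks was 1.55 for VIL1, -0.33 and 0.54 for VIL2, and -0.27 for VIL3. It was 0.46 for VIP4, and 1.77, -0.26 and 0.28 for AtVRN1-like.

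The change in Harnesk crown lay below that in control crown for 5 of the 6 genes, against 34.0% of all probe-sets that differed. The differences were -1.07 ± 0.21 for EMF2 (adjusted p = 0.00242), -1.05 ± 0.30 for VIL1 (0.0172), -0.97 ± 0.26 for VIL3 (0.0131), -0.91 ± 0.30 for AtVRN1-like (0.0338) and -0.76 ± 0.27 for VIL2 (0.0433), with -0.24 for VIP4 (0.665). Leaving out a Harnesk array ended the call of VIL2 in all 4 fits (adjusted p up to 0.0963) and that of AtVRN1-like in 2 of 4 (up to 0.114). Taken from 5 to 9 weeks, which leaves out the control array of 3 weeks and also shortens the Harnesk interval, again chosen after seeing the data, none of the 6 passed in limma, with differences of -0.77 to -0.10 and adjusted p from 0.158 to 0.918. AtVRN1-like was then at -0.77, with a 95% interval of -1.42 to -0.12, and its control crown level was highest at 9 weeks. It went there from 1.142 through 1.005 to 1.866, and its companion Ta.9525.1.S1_at from 0.934 through 0.787 to 3.183. For Ta.9525.1.S1_at the difference between Harnesk and control crown was -1.98 ± 0.34 (adjusted p = 0.00104), and -2.05 (adjusted p = 0.00308) from 5 to 9 weeks. The other probe-sets of that cluster did not show it, with control crown values at 9 weeks of 1.174 for Ta.9525.2.S1_x_at and 1.039 for Ta.9525.3.S1_x_at. Of all 8 further probe-sets of the genes, 3 were called from 3 to 9 weeks, each lower in Harnesk crown, against the same 34.0%.

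Among themselves, VIL2, VIL3, EMF2 and VIP4 had like profiles over the 12 Harnesk arrays, with Pearson correlations of log2 values of 0.812 to 0.940, while those of VIL1 and AtVRN1-like with the other genes lay between -0.332 and 0.458. The points share the tissue difference, so these are descriptions only. Of 1272 probe-sets with a single gene symbol, the ones most like VIL2 were LOC543072 (0.992) and LOC543414 (0.989), those most like VIL3 were LOC780655 and LOC543447 (both 0.988), and those most like EMF2 were LOC542912 (0.993) and LOC100037523 (0.991). For VIP4 they were LOC543178 (0.958) and LOC543487 (0.940). VIL1 was matched by LOC606308 on both of its probe-sets (0.915 and 0.899), and AtVRN1-like by LOC543428 and LOC100125738, at 0.688 only. Over the 6 control arrays the same pairs, in order, gave 0.96 and 0.935 for VIL2 and 0.818 and 0.97 for VIL3. They gave 0.959 and 0.736 for EMF2 and 0.358 and 0.74 for VIP4. For VIL1 they gave 0.606 and 0.64, and for AtVRN1-like 0.478 and 0.391.

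Of 24 probe-sets of other floral genes that the study lists, 10 rose and 4 fell in leaf from 3 to 9 weeks, against 17.0% and 16.9% of all probe-sets, and 6 rose and 1 fell in crown, against 3.57% and 7.43%. All 4 probe-sets of TaVRN1 are among the 6 that rose in crown. They rose there by 1.22 to 3.54 on the log2 scale (adjusted p from 5.25e-08 to 0.00137), in the tissue where VIL3 and EMF2 fell. Between the single control crown arrays of 9 and 3 weeks, at a steady temperature, they differed by 2.27, 2.9, -0.01 and 3.97. FVE, whose Arabidopsis homologue is a histone-binding protein of the autonomous flowering pathway, went in leaf from 0.274 and 0.286 to 0.504 and 0.498 (0.84 ± 0.12, adjusted p = 0.000173). It was higher in crown by 2.89 (adjusted p = 5.47e-13) and its change from 3 to 9 weeks there was -0.21 (adjusted p = 0.322). Like VIL3 and EMF2, it thus differed between the tissues in its change (1.05 ± 0.17, adjusted p = 0.000676). Between the single control arrays of 9 and 3 weeks FVE differed by 1.95 in leaf and -0.11 in crown.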

How the data were processed

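RNA pooled from 4 plants per array was hybridised to the Affymetrix Wheat Genome Array. According to the authors' methods, images were extracted with Microarray Suite, chips were normalised by RMA, whose version is not given, and every gene was divided by its median in GeneSpring. The deposited values are therefore linear ratios, with 3 decimals and a lowest value of 0.01; which arrays the median spans is not stated. Sequencing depth does not apply, and the number of arrays limits the precision.

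For the fit, log2 of the values was passed to limma 3.58.1 under R 4.3.3. One model held a mean for each of 12 conditions over 18 arrays, with 6 residual degrees of freedom, empirical Bayes moderation without trend and Benjamini-Hochberg adjustment over 61179 probe-sets, without the 111 controls of the manufacturer. A change was called at an adjusted p below 0.05. Single control arrays were assumed to vary like the Harnesk replicates. The fit was tested on simulated data.

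Whether rows follow the identifiers was checked with 15474 pairs of neighbouring rows of one transcript cluster: their rank correlation exceeded that of other neighbours by 0.403 to 0.651 on the 18 arrays used and by -0.141 to 0 on the other 24. Gene symbols come from the platform annotation, updated through the RefSeq gene table of the assembly IWGSC CS RefSeq v2.1. Of the 6 probe-sets it lists only that of EMF2, as LOC606372, and no sequence is printed.

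The members and lists were chosen with earlier results of these data known. The genes named are the 6, the other probe-sets of their clusters with 1 more that the study lists for VIL2, other floral genes listed by the study and, for likeness, the 2 probe-sets with 1 gene symbol of highest Pearson correlation with each over the 12 Harnesk arrays. Alternatives were quantile normalisation and median centring, leaving out probe-sets with a mean below 0.1, a trend in the variance prior, arrays of one tissue, log2(value + 0.05), the methods' t-test at 2-fold, a replicate block, and leaving out each Harnesk array.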

Additional observations from a re-analysis of the deposited data

Results flagged for a closer look

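Differences between groups passed a test of the difference itself in 3 comparisons. Between leaf and crown of Harnesk, the change from 3 to 9 weeks differed by 1.55 for VIL3, 0.85 for EMF2 and 0.77 for VIL1, and on companion probe-sets by 1.19 for Ta.10289.1.A1_at (VIL1), 0.70 for TaAffx.92348.1.S1_at (VIL2, adjusted p = 0.0214, kept in 4 of 8 fits that leave out an array) and -0.79 for Ta.9525.2.S1_x_at (AtVRN1-like). Between Harnesk and control leaf, the change differed by -0.98 for VIL2. Between Harnesk and control crown, it differed by -1.07 for EMF2, -1.05 for VIL1, -0.97 for VIL3, -0.91 for AtVRN1-like and -0.76 for VIL2. The VIL1 companion Ta.10289.1.A1_at differed there by -1.68 (adjusted p = 0.000283), and from 5 to 9 weeks, which leaves out the control crown array of 3 weeks, by -0.89 (adjusted p = 0.0402), where VIL1 itself was at -0.58 (adjusted p = 0.301).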

How the results depend on the processing

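Under the alternatives other than leaving out a Harnesk array, 268 of the values given for the 6 genes kept their direction and side of the threshold, 47 lost the call, 8 gained it and 7 changed sign; for the 8 companions these were 154, 16, 1 and 1. Where no value shows it, the cause was not tested. Crown minus leaf was called for 4 to 5 of the 6 genes with an array left out, 4 to 5 under the other limma settings and 3 by the methods' t-test at 2-fold. The methods' t-test at 2-fold called 0 of the 6 from 3 to 5, 5 to 9 and 3 to 9 weeks in leaf, and 0 in crown, with and without adjustment, a rule that a change under 2-fold cannot pass; VIL3 in leaf, at 2.01-fold, met the fold and missed on its p. Fits to one tissue called 0 in leaf for 5 minus 3 weeks, 0 for 9 minus 5 and 1 for 9 minus 3, and 3 in crown for 9 minus 5 and 4 for 9 minus 3; the change in leaf against the control gave 0. After quantile normalisation 1 was called in crown for 9 minus 3 weeks, 2 in the leaf comparison with the control and 3 in the crown comparison. A trend in the variance prior called 2 in crown for 9 minus 5 weeks. Replicate numbers did not pair the samples (0 of 15 correlations over 0.1, from -0.0942 to 0.0707), and with a replicate block 0 were called in crown for 9 minus 5 weeks (VIL2 at an adjusted p of 0.053), while the counts of the 6 genes in the other comparisons fitted with the block stayed at their values. From 5 to 9 weeks, without the control crown array of 3 weeks, 0 were called against the control.

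Leaving out each Harnesk array in turn, the counts of the 6 called ran from 1 to 2 in leaf for 5 minus 3 weeks, 1 to 3 for 9 minus 5 and 2 to 4 for 9 minus 3, were 0 in crown for each interval, ran from 2 to 3 for leaf against crown change, and from 0 to 2 in leaf and 3 to 4 in crown against the control. Over the same arrays, the values that changed sign were, for 9 minus 3 weeks, VIP4 in leaf (-0.01 to 0.79) and its companion Ta.6967.1.S1_at (-0.17 to 0.58), both called at the upper end, without replicate 1 of 3 weeks, Ta.9525.1.S1_at in leaf (-0.41 to 0.14), and against the control leaf VIL1 (-0.24 to 0.07), VIL3 (-0.24 to 0.20) and VIP4 (-0.57 to 0.22). After quantile normalisation the leaf against crown change was -0.30 for VIL2 and -0.10 for TaAffx.92348.1.S1_at, VIL3 in leaf was -0.06 for 9 minus 5 weeks, and VIP4 against the control crown was 0.04. Median centring put VIL3 against the control leaf at 0. Without the control leaf array of 9 weeks, from 3 to 5 weeks, VIL2 was at 0.47, VIP4 at 0.23 and VIL3 at 1.05 against the control, each opposite in sign to the change from 3 to 9 weeks, and of these VIL3 alone was called (adjusted p = 0.0357).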
